A study of Mus musculus with 6 samples.

Results

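The genes described here are the mouse orthologs of 34 genes that are mutated in human motoneuron disease, distal motor neuropathy and Charcot-Marie-Tooth disease. They were chosen by name for their part in disease, by a rule that used no value measured here. Earlier results of these data were known when they were chosen. Each of the 34 symbols matched 1 row in every table of 39174 genes. RNA-seq was measured in primary mouse motoneuron cultures, in 3 libraries of the genotype Nmd+/+ and 3 of the genotype Nmd-/-, all of a strain given as CD-1 and with no treatment named. The mutant genotype is deficient in Ighmbp2, a helicase whose human gene is mutated in the motoneuron disease SMARD1, and the comparison asks how genes of related diseases stood in cultures of this model. Age and pooling of the embryos or animals are not in the labels, nor is the origin of each replicate. The p-values therefore cover the spread of these 6 libraries, part of which may be technical.

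Motoneurons keep very long axons, and the genes of inherited motoneuron disease fall into a few cell-biological groups. One group clears damaged protein through ubiquitin, the proteasome and autophagy, and another binds, processes or degrades RNA. Others carry cargo along microtubules and between membranes, shape mitochondria and lipids, or move copper, riboflavin, choline and cations across membranes. Most of these genes are used by many cell types besides motoneurons.

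The libraries carried little RNA of defining motoneuron genes. Chat, the gene of acetylcholine synthesis, lay between 0.0112 and 0.0692 FPKM (fragment counts scaled by transcript length and library size), and the homeobox genes Mnx1 and Isl2 were listed at 0 in 4 libraries each. Of 9 motoneuron markers in the tables, 4 reached a mean of 1 FPKM, and the 9 summed to between 183 and 244 FPKM in Nmd+/+ and between 211 and 254 FPKM in Nmd-/-. Most of that sum was Slit2, at 154 to 239 FPKM over the 6 libraries. Over the same libraries, 8 markers of radial glia and astrocytes summed to 3164 to 4997 FPKM, of which Vim had 2380 to 4452 FPKM. Markers of other spinal neurons (8 genes) summed to 132 to 286 FPKM, and 6 of dividing cells to 293 to 445 FPKM. For microglia (5 genes) the sum was 2.39 to 7.86 FPKM and for endothelium (5 genes) 9.24 to 17.8 FPKM. Most of the endothelium sum was Kdr, at 8.97 to 16.9 FPKM. Such sums are not shares of cells. Replicate 2 of both genotypes stood apart: 8 fibroblast markers summed to 143 and 176 FPKM there, against 2.76 to 4.28 FPKM in the other 4 libraries, and 6 markers of neurons in general summed to 659 and 691 FPKM, against 1017 to 1348 FPKM. The depth that would give the Cufflinks intervals by counting error alone was equivalent to between 15446400 and 23138200 fragments per library. Ighmbp2 itself lay between 1.09 and 1.44 FPKM in Nmd+/+ and between 0.598 and 0.876 FPKM in Nmd-/-, with no overlap. Its mean in Nmd-/- was 0.59 of that in Nmd+/+, and it was lower in 3 of 3 pairs of the same number. It did not pass the test over all genes (limma adjusted p = 0.9997, and 0.944 with the replicate number as a block). The unadjusted limma p was 0.029, and 0.011 with the block. That test can thus miss a difference of this size at this level. In such bulk samples, fewer cells of a type and less RNA per cell cannot be told apart.

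The disease genes covered a wide range of levels. FPKM is scaled by transcript length, so levels of different genes can be set side by side, but only roughly. In Nmd+/+ replicate 1, Atxn2 at 154 FPKM and Ubqln2 at 156 FPKM had Cufflinks intervals equivalent to 2714 and 26893 fragments. Why these differed was not tested. Over the 6 libraries, 6 genes had a mean above 100 FPKM, 14 lay between 10 and 100 FPKM, 12 between 1 and 10 FPKM, and 2 below 1 FPKM. The last 2, the choline transporter gene Slc5a7 and the riboflavin transporter gene Slc52a3, did not reach the minimum of 1 FPKM for the test, which 14611 genes of the tables passed. The median disease gene among the 32 tested stood at percentile 63.1 of all genes tested by mean FPKM.

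**Figure D1:**
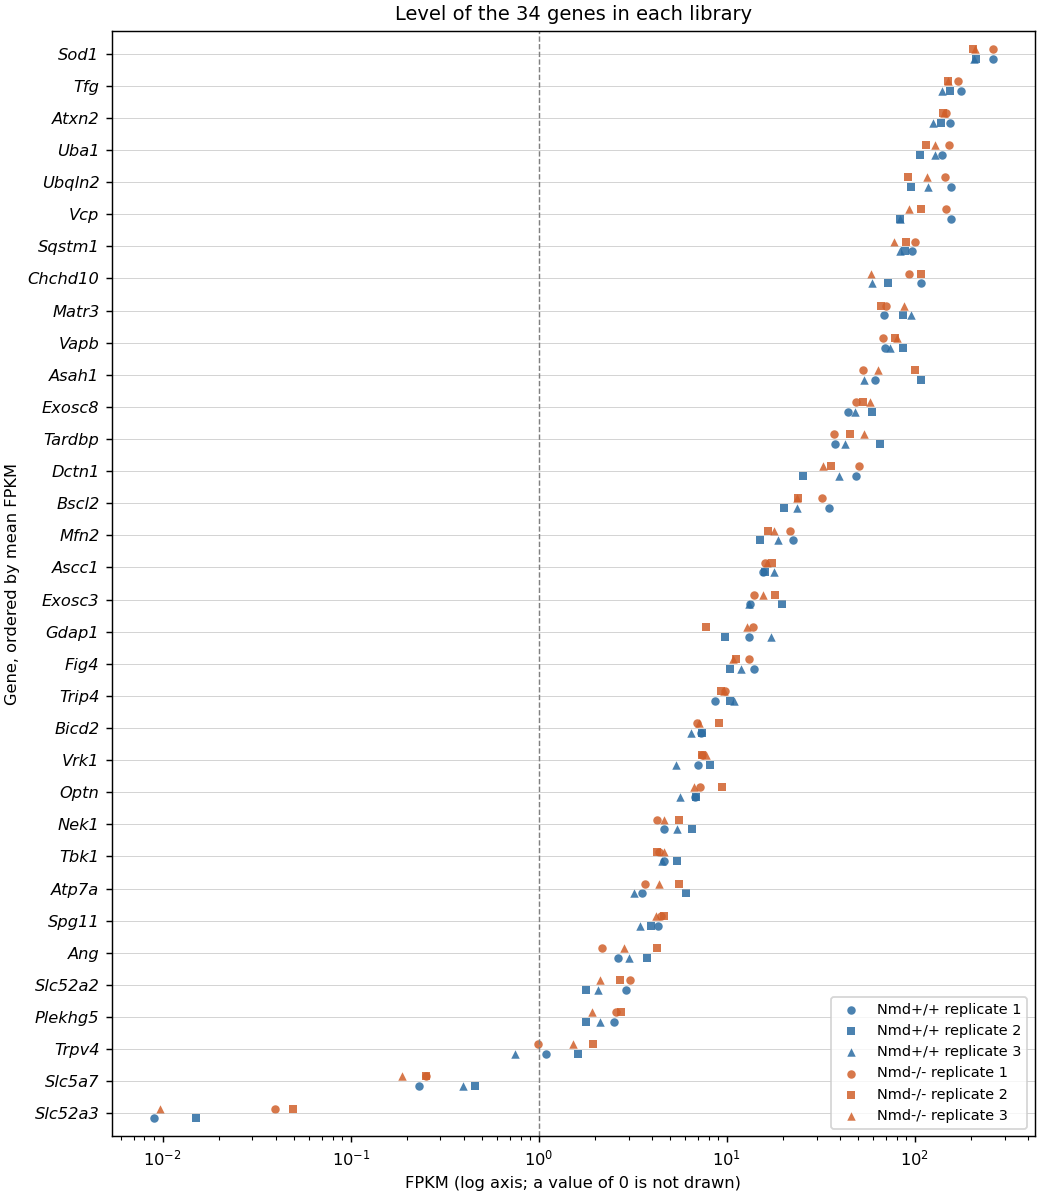
FPKM of the 34 genes (log axis) in each of the 6 libraries, blue for Nmd+/+ and orange for Nmd-/-, with a marker shape for each replicate number and a dashed line at 1 FPKM. Genes are ordered by mean, from Slc52a3 at the bottom to Sod1 at the top, and the colours are mixed within most rows while the 3 shapes often keep apart.

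Sod1 (ENSMUSG00000022982, chromosome 16, 90220742 to 90226322, GRCm38), which encodes the cytosolic copper-zinc superoxide dismutase, had the highest level. It measured 259, 211 and 206 FPKM in Nmd+/+ replicates 1, 2 and 3, and 259, 203 and 210.02 FPKM in the Nmd-/- libraries of the same numbers. The 2 libraries numbered 1 were the highest, and the genotypes overlapped (226 ± 29 and 224 ± 31 FPKM, SD, n = 3 each). Next came Tfg, whose product acts where vesicles leave the endoplasmic reticulum, at 176, 154 and 139 FPKM in Nmd+/+ and 169, 151 and 151 FPKM in Nmd-/-. Atxn2, which encodes an RNA-binding protein of the cytoplasm, measured 154, 137 and 126 FPKM in Nmd+/+ and 147, 141 and 144 FPKM in Nmd-/-. The gene of the ubiquitin-activating enzyme, Uba1, measured 139, 106 and 129 FPKM in Nmd+/+ and 152, 114 and 128 FPKM in Nmd-/-. In Tfg, Atxn2 and Uba1 the genotypes overlapped and the libraries numbered 1 were again the highest of their genotype. The means of Tfg (157 FPKM over all libraries) and Atxn2 (141 FPKM) differed by less than the range of either gene across libraries.

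At the other end, Slc5a7 (chromosome 17, 54273594 to 54299034), the high-affinity choline transporter of cholinergic neurons, measured 0.229, 0.460 and 0.396 FPKM in Nmd+/+ and 0.252, 0.252 and 0.188 FPKM in Nmd-/-. The groups overlapped at Nmd+/+ replicate 1, and an exact two-sided permutation test of the 3 against 3 values gave p = 0.3, where 0.1 is the smallest p this design allows. Its level was above that of Chat in every library. Slc52a3 measured 0.00900, 0.0150 and 0 FPKM in Nmd+/+ and 0.0398, 0.0495 and 0.00968 FPKM in Nmd-/-. The lower bound of the Cufflinks interval was 0 in all 6 libraries, so no difference was detectable at this depth (exact permutation p = 0.2). Its relative Slc52a2, the riboflavin transporter gene on chromosome 15, was the more abundant of the pair, at 2.91, 1.79 and 2.08 FPKM in Nmd+/+ and 3.07, 2.71 and 2.12 FPKM in Nmd-/-.

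The 250 bases before the transcription start are shown for 4 genes that differ in level or in pattern across libraries: Sod1 as the highest, Slc5a7 as the lowest with a RefSeq entry, Vcp as a gene highest in the libraries numbered 1, and Ang as a gene highest in those numbered 2. Sequences are from RefSeq (GRCm38.p6), 5′ to 3′ on the strand of the gene. Capitals mark a match on either strand to the TATA motif TATAAA, to the GC box motif GGGCGG or to the E-box motif CACGTG, and neighbouring matches of the GC box overlap within Sod1.
Sod1 (chr16:90220512-90220761, plus strand): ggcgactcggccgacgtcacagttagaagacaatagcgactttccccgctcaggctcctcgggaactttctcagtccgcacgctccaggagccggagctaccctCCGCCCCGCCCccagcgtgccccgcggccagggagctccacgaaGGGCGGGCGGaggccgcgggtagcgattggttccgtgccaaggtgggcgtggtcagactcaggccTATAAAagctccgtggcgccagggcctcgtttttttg
Vcp (chr4:43000508-43000757, minus strand): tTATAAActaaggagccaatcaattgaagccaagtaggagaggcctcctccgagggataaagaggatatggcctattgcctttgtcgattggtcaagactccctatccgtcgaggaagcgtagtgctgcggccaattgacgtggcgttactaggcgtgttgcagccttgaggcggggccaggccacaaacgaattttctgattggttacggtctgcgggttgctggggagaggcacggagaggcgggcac
Ang (chr14:51090827-51091076, plus strand): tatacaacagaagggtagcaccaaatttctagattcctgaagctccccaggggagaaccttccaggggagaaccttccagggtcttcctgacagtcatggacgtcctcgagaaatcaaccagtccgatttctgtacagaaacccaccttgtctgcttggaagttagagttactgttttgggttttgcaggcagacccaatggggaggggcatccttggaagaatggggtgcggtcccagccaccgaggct
Slc5a7 (chr17:54299035-54299284, minus strand): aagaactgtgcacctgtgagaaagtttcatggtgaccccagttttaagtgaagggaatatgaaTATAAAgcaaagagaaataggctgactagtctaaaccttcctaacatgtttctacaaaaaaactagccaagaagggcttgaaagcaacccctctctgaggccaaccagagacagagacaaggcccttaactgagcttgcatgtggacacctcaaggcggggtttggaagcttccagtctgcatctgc

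The 4 windows held 26 CpG pairs in Sod1, 15 in Vcp, 5 in Ang and 1 in Slc5a7. Entries existed for 27 of the 34 genes, with 42 windows in all, since some genes have several starts. Their median was 13.5 CpG pairs, against 6 over 32851 windows of all genes. GGGCGG stood in 18 of the 42 windows, against 32.7% of all windows, TATAAA in 6 (12.4% of all windows) and CACGTG in 3 (6.02% of all windows). A match describes these letters only.

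No tested disease gene passed the test between genotypes. Of the 32 genes, 0 passed an adjusted p of 0.05 in limma over all genes, against 0% of the 14611 genes tested, and 0 had an unadjusted p under 0.05, against 0.445% (0.274% higher and 0.171% lower in Nmd-/-). With the replicate number as a block the counts were 0 and 0 again, against 0% and 4.87% of all genes. In none of the 32 genes did the 3 values of each genotype lie apart, which they did in 2.67% of all genes. By the sign of the difference 19 of 32 genes were higher in Nmd-/- (56.0% of all genes), and 16 of 32 after median-of-ratios scaling (48.7% of all genes). The median log2 difference of the 32 genes was 0.024 and that of all genes 0.017, on the scale of log2(FPKM + 1), which understates changes of low genes. The ratio of mean FPKM, Nmd-/- over Nmd+/+, lay between 0.857 (Gdap1) and 1.28 (Trpv4). The 95% intervals of the log2 differences reached from -0.82 at the lowest to 0.81 at the highest. Each thus excluded a doubling and a halving of FPKM + 1. Such intervals were found for 95.6% of all genes. With the block the limits were -0.48 and 0.52. For low genes this does not exclude a doubling of FPKM itself. With a pseudocount of 0.1 the log2 difference of Trpv4 was 0.35 (SE 0.36).

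**Figure D2:**
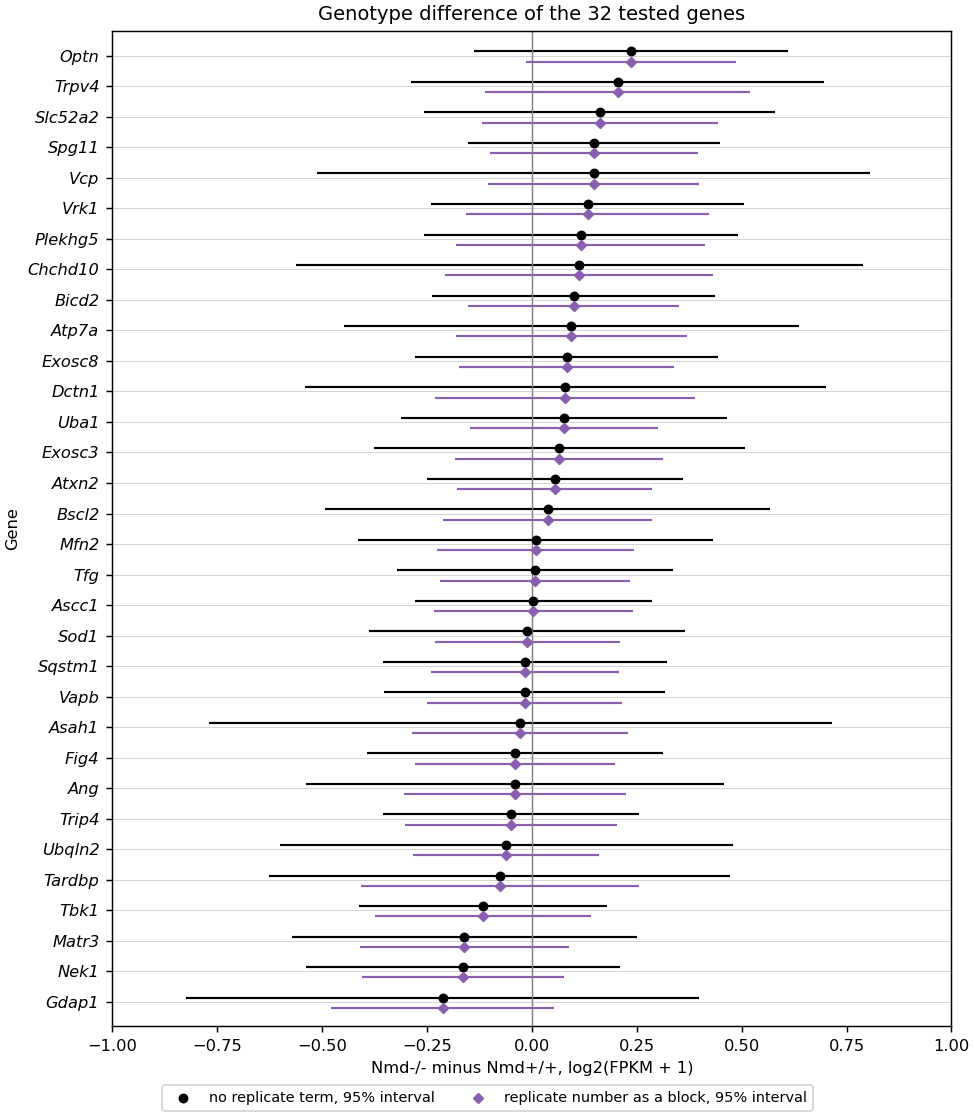
Difference Nmd-/- minus Nmd+/+ in log2(FPKM + 1) for the 32 tested genes, with 95% intervals of the fit without a replicate term (black) and with the replicate number as a block (purple). Every interval of both fits includes 0.

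Among the genes of protein clearance, Optn came nearest to a difference. Optn (ENSMUSG00000026672, chromosome 2, 5020642 to 5064051) encodes an autophagy receptor for ubiquitin-tagged cargo. It measured 6.74, 6.89 and 5.61 FPKM in Nmd+/+ and 7.22, 9.42 and 6.72 FPKM in Nmd-/-. The Nmd-/- library was the higher one in 3 of 3 pairs of the same number, while the groups overlapped because Nmd-/- replicate 3 lay just below 2 Nmd+/+ libraries. The log2 difference of 0.24 (SE 0.16, 95% interval -0.14 to 0.61) did not pass in limma (adjusted p = 0.9997, and 0.999 with the block). With 1 library left out it lay between 0.11 (Nmd-/- replicate 2 absent) and 0.32 (Nmd-/- replicate 3 absent). Tbk1, the kinase that phosphorylates Optn, measured 4.65, 5.46 and 4.53 FPKM in Nmd+/+ and 4.35, 4.27 and 4.62 FPKM in Nmd-/-. Its log2 difference was -0.12 (SE 0.13), and Nmd-/- replicate 3 lay above 1 Nmd+/+ library. Sqstm1, another autophagy receptor, stood at 89.5 ± 6.9 FPKM in Nmd+/+ against 88.8 ± 11.4 FPKM in Nmd-/- (SD, n = 3 each). Vcp, the ATPase that extracts ubiquitin-tagged proteins, stood at 107 ± 41 and 116 ± 28 FPKM, and Ubqln2, which ferries such proteins to the proteasome, at 123 ± 31 and 117 ± 26 FPKM. The spread of these last 2 genes within a genotype was far wider than the difference between their means, but it includes differences between replicate numbers. Within pairs 1, 2 and 3 the log2 differences were -0.073, 0.35 and 0.16 for Vcp. For Ubqln2 they were -0.11, -0.048 and -0.022, so the Nmd-/- library was the lower one in 3 of 3 pairs. With the replicate number as a block neither gene passed (limma adjusted p = 0.999 for each).

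Genes that act on RNA showed small differences in both directions. Matr3, which encodes a nuclear matrix protein that binds RNA, measured 68.9, 86.3 and 95.5 FPKM in Nmd+/+ and 69.8, 66.1 and 87.8 FPKM in Nmd-/-. Its log2 difference of -0.16 (SE 0.18) lay in the pairs numbered 2 and 3, since the libraries numbered 1 were nearly equal, and lay between -0.29 (without Nmd+/+ replicate 1) and -0.059 (without Nmd+/+ replicate 3) with 1 library left out. Tardbp, a gene for an RNA-binding protein that is found in the inclusions of most patients with amyotrophic lateral sclerosis, stood at 48.5 ± 14.9 FPKM in Nmd+/+ against 45.2 ± 8.2 FPKM in Nmd-/-. Exosc3 and Exosc8 encode subunits of the RNA exosome, which degrades and trims RNA. Exosc3 stood at 15.3 ± 3.7 and 15.9 ± 2.1 FPKM, and Exosc8 at 50.4 ± 8.0 and 53.1 ± 4.7 FPKM. Trip4 and Ascc1, of the activating signal cointegrator complex, stood at 9.99 ± 1.18 and 9.58 ± 0.28 FPKM and at 16.5 ± 1.3 and 16.5 ± 0.7 FPKM. Ascc1 was the steadiest of the 32 genes, with its highest library at 1.15 times its lowest. Ang, which encodes a secreted ribonuclease, stood at 3.14 ± 0.59 and 3.08 ± 1.06 FPKM (SD, n = 3 each in this paragraph).

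Of the genes of transport and membrane traffic, Spg11 had the smallest p. Its product, spatacsin, acts in the recycling of lysosomes, and it measured 4.28, 3.94 and 3.46 FPKM in Nmd+/+ and 4.44, 4.61 and 4.19 FPKM in Nmd-/-. The Nmd-/- library was the higher one in 3 of 3 pairs, with a single overlap between Nmd+/+ replicate 1 and Nmd-/- replicate 3. The log2 difference was 0.15 (SE 0.13, 95% interval -0.15 to 0.45) and did not pass (limma adjusted p = 0.9997). Plekhg5 measured 2.52, 1.78 and 2.11 FPKM in Nmd+/+ and 2.56, 2.73 and 1.91 FPKM in Nmd-/-, a log2 difference of 0.12 (SE 0.16). That difference lay in pair 2 and turned to -0.036 without replicate 2 of both genotypes. Dctn1, the largest dynactin subunit, stood at 37.8 ± 11.7 and 39.4 ± 9.6 FPKM, and Bicd2, an adaptor of dynein, at 7.06 ± 0.52 and 7.68 ± 1.19 FPKM. Vapb, which tethers the endoplasmic reticulum to other membranes, stood at 76.6 ± 8.9 and 75.5 ± 7.1 FPKM. Fig4, a phosphoinositide phosphatase of the endosomes, stood at 12.1 ± 1.8 and 11.7 ± 1.3 FPKM (SD, n = 3 each). None of these genes passed the test.

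The mitochondrial gene Gdap1 (ENSMUSG00000025777, chromosome 1, 17145362 to 17164271) had the most negative difference. Its product takes part in mitochondrial fission. It measured 13.2, 9.83 and 17.1 FPKM in Nmd+/+ and 13.8, 7.71 and 12.8 FPKM in Nmd-/-. Both libraries numbered 2 were the lowest, and pair 1 went the other way from pairs 2 and 3. The log2 difference of -0.21 (SE 0.26, 95% interval -0.82 to 0.40) did not pass (limma adjusted p = 0.9997) and turned to 0.026 without Nmd-/- replicate 2. Mfn2, which fuses outer mitochondrial membranes, stood at 18.7 ± 3.7 FPKM in Nmd+/+ against 18.7 ± 2.7 FPKM in Nmd-/-, and Chchd10, a protein of the intermembrane space, at 79.5 ± 24.9 and 86.1 ± 25.2 FPKM (SD, n = 3 each).

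Neither kinase of the nucleus and cell cycle passed between genotypes. Nek1, a kinase of DNA repair and cilia, measured 4.63, 6.56 and 5.41 FPKM in Nmd+/+ and 4.27, 5.54 and 4.62 FPKM in Nmd-/-. The Nmd-/- library was the lower one in 3 of 3 pairs, but the groups overlapped, and the log2 difference of -0.16 (SE 0.16) did not pass (limma adjusted p = 0.9997). Vrk1 measured 7.05, 8.15 and 5.38 FPKM in Nmd+/+ and 7.39, 7.40 and 7.78 FPKM in Nmd-/-, a log2 difference of 0.13 (SE 0.16). Here the low value of Nmd+/+ replicate 3 set the sign, which turned to -0.0097 without that library. Across the 32 genes 3 were higher in 3 of 3 pairs (Optn, Spg11 and Slc52a2), against 14.9% of all genes, and 2 were lower in 3 of 3 pairs (Nek1 and Ubqln2), against 10.6%.

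Among lipid genes, Bscl2, whose product seipin organises lipid droplets, stood at 26.2 ± 7.9 and 26.5 ± 4.7 FPKM. Asah1, the lysosomal acid ceramidase, stood at 74.3 ± 29.0 and 72.2 ± 24.6 FPKM (SD, n = 3 each). Of the channels and transporters, the cation channel gene Trpv4 was the lowest tested gene. It measured 1.10, 1.61 and 0.750 FPKM in Nmd+/+ and 0.987, 1.93 and 1.52 FPKM in Nmd-/-. The groups overlapped and pair 1 was lower in Nmd-/-, and the log2 difference of 0.20 (SE 0.21, 95% interval -0.29 to 0.70) did not pass (limma adjusted p = 0.9997). It lay between 0.065 (without Nmd+/+ replicate 3) and 0.36 (without Nmd-/- replicate 1) with 1 library left out, and was 0.35 with a pseudocount of 0.1. Its Cufflinks intervals corresponded to between 39.7 and 131 fragments per library, the thinnest of any tested disease gene by its lowest library. Slc52a2, with the values above, had a log2 difference of 0.16 (SE 0.18).

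No partner or relative of these genes passed between genotypes either. Of 63 other genes linked to motoneuron disease and motor neuropathy that were found in the tables, 56 were tested. Of these, 28 were higher and 28 lower by sign, with a median of 0.00065, and 0 passed in limma. After median-of-ratios scaling 25 were higher (median -0.022). At an unadjusted p under 0.05, 0 of the 56 did so without the block and 7 with it, beside 4.87% of all genes with the block. Those 7 were chosen after their values were seen: Anxa11, Hspb1, Ccnf, Ndrg1 and Pmp22 with positive differences, and the neurofilament genes Nefh and Nefl with negative ones. Their smallest adjusted p with the block was 0.913. Anxa11, which encodes an annexin that binds RNA granules, measured 6.17 ± 1.43 FPKM in Nmd+/+ against 9.41 ± 3.12 FPKM in Nmd-/- (SD, n = 3 each), and the 2 groups did not overlap. Ccnf, which encodes cyclin F, measured 5.65 ± 1.47 and 7.23 ± 0.26 FPKM, and the actin-binding profilin gene Pfn1, the most abundant of the list, 424 ± 82 and 469 ± 37 FPKM. The 6 neuron markers of the libraries were all lower and the 6 markers of dividing cells all higher in Nmd-/- by their means. Markers of microglia (5 of 5) and endothelium (5 of 5) were also higher. Those of the oligodendrocyte lineage and of Schwann cells were lower (0 of 5 higher in each), and the remaining sets were mixed. Schwann cell markers summed to 3.48, 21.6 and 4.38 FPKM in Nmd+/+ and 3.61, 6.75 and 3.56 FPKM in Nmd-/-. The sums of neuron and dividing cell markers overlapped between genotypes and went the other way in pair 2. Neuron markers summed to 1348, 659 and 1312 FPKM in Nmd+/+ and 1270, 691 and 1017 FPKM in Nmd-/-. Markers of dividing cells summed to 321, 431 and 293 FPKM in Nmd+/+ and 353, 403 and 445 FPKM in Nmd-/-. The part of these markers in the values of the listed genes was not tested.

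Complexes that hold a disease gene were counted with that gene included, and in each 0 genes passed in limma, with and without the block, and 0 had an unadjusted p under 0.05 in either. By sign 10 of 13 genes of the RNA exosome and its cofactors were higher (median 0.054), as were 2 of 4 of the activating signal cointegrator complex (median -0.023) and 7 of 12 dynactin subunits (median 0.0046). In the exosome list C1d had the smallest p, at 69.9 ± 12.7 FPKM in Nmd+/+ against 60.7 ± 5.3 FPKM in Nmd-/-. Of the cofactors of Vcp 7 of 16 were higher (median -0.017), and of autophagy receptors and Atg8 proteins 8 of 17 (median -0.0096), where Gabarap was the most abundant at 437 ± 101 and 448 ± 112 FPKM. Of 8 genes of the Fig4 and spatacsin complexes 6 were higher (median 0.086), among them Zfyve26, the partner of Spg11, at 1.62 ± 0.19 and 1.87 ± 0.07 FPKM. Genes of mitochondrial fusion, fission and cristae were higher in 7 of 12 (median 0.0077), with the fission factor gene Mff at 230 ± 15 and 207 ± 13 FPKM. Copper and superoxide genes were higher in 5 of 9 (median 0.040), with the copper pump gene Atp7b at 4.65 ± 0.57 and 5.40 ± 0.58 FPKM. Of 3 tested riboflavin genes 2 were higher, with a median of 0.015, and the riboflavin kinase gene Rfk measured 50.02 ± 9.60 and 44.1 ± 7.5 FPKM (SD, n = 3 each in this paragraph). All genes together had 56.0% higher and a median of 0.017. After median-of-ratios scaling 3 of 12 dynactin subunits were higher (median -0.019), 5 of 12 mitochondrial genes (median -0.015), 1 of 3 riboflavin genes (median -0.0060) and 1 of 4 genes of the cointegrator complex (median -0.045), beside 48.7% of all genes (median -0.0040). The first 3 of these medians thus turned in sign with the scaling. A positive median stayed for the exosome list (9 of 13, 0.031) and the Fig4 and spatacsin list (6 of 8, 0.065). It also did for copper and superoxide genes (5 of 9, 0.021). A negative one stayed for the cofactors of Vcp (5 of 16, -0.037) and the autophagy list (7 of 17, -0.033). Without scaling, the medians of pairs 1, 2 and 3 were 0.049, -0.21 and 0.23 for the exosome list. For the Fig4 and spatacsin list they were 0.016, 0.14 and 0.091, and for the copper list 0.020, 0.083 and -0.079.

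Levels of 9 disease genes differed between replicate numbers. An F test of the replicate number in limma, with genotype in the fit, passed for 9 of 32 genes, near the 28.6% of all genes that passed. By the mean of each number, 5 of the 9 were highest in the libraries numbered 1 (Vcp, Ubqln2, Bscl2, Dctn1 and Chchd10), 3 in those numbered 2 (Asah1, Ang and Atp7a), and 1 in those numbered 3 (Gdap1). As shares of the 32 tested genes these were 15.6%, 9.38% and 3.12%, beside 13.8%, 11.7% and 3.05% of all genes tested. Of the replicate numbers, 2 stood apart in the marker levels given above: fibroblast markers were high and neuron markers low in both its libraries. Fibroblast markers did not separate number 1 (2.76 and 4.28 FPKM, Nmd+/+ first) from number 3 (2.80 and 4.24 FPKM). The part of fibroblast and neuron markers in the values of the disease genes was not tested.

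**Figure D3:**
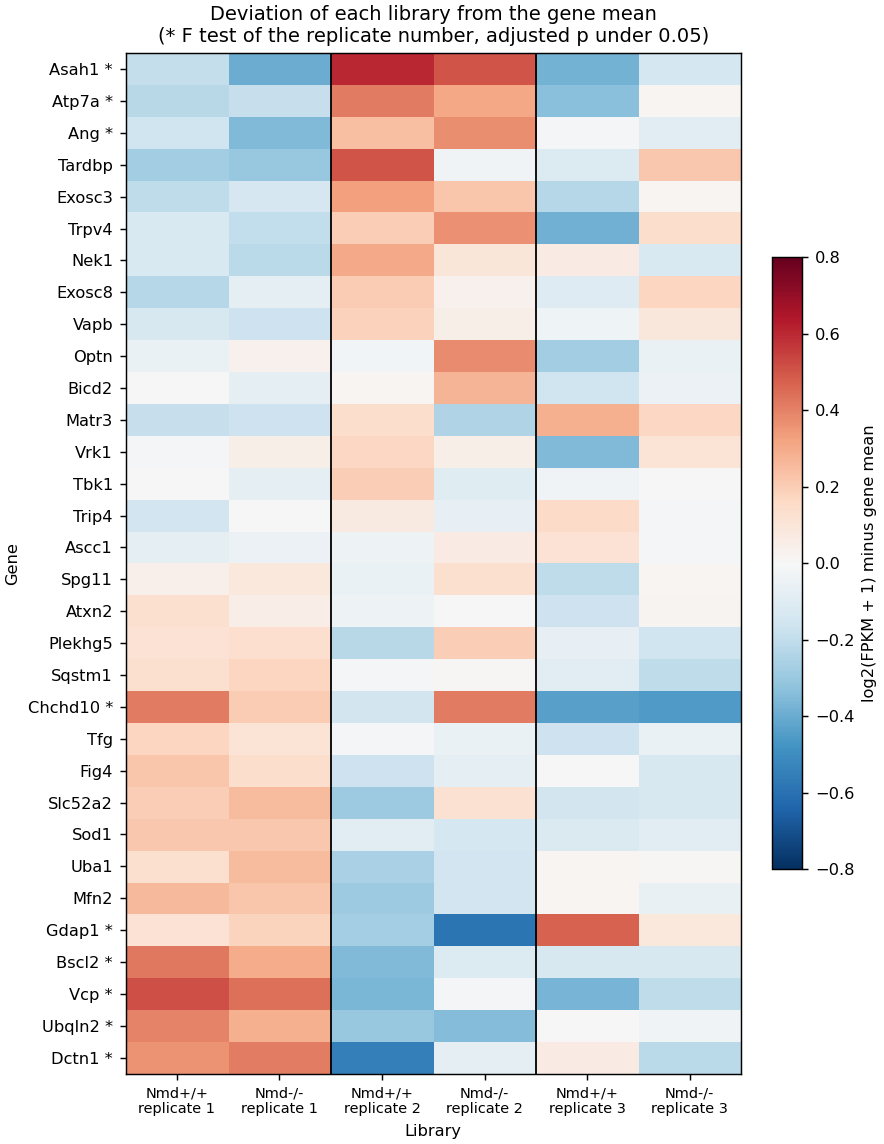
Deviation of each library from the mean of the gene in log2(FPKM + 1) for the 32 tested genes, with libraries grouped by replicate number and genes ordered by the difference between replicates 2 and 1. Same-numbered libraries share their colour in most rows, and the 9 genes with an asterisk passed the F test of the replicate number.

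Asah1 (chromosome 8, 41340197 to 41374773) had the smallest p for the replicate number. It measured 108 and 99.9 FPKM in the libraries numbered 2, Nmd+/+ first, and 61.6, 53.1, 53.9 and 63.5 FPKM in the pairs numbered 1 and 3. Both libraries numbered 2 thus lay above the other 4, as they did in 7 of the 32 genes and in 20.6% of all genes. Their log2 level was 0.83 (SE 0.12) above the mean of the others (limma F test, adjusted p = 0.00418). Atp7a, the copper pump gene, measured 6.05 and 5.56 FPKM in the libraries numbered 2, and 3.53, 3.65, 3.20 and 4.35 FPKM elsewhere, a log2 excess of 0.54 (SE 0.13, adjusted p = 0.0310). Ang measured 3.78 and 4.25 FPKM in the libraries numbered 2, 2.62 and 2.17 FPKM in those numbered 1, and 3.0005 and 2.82 FPKM in those numbered 3, a log2 excess of 0.46 (SE 0.13, adjusted p = 0.0385). The other 4 genes with both libraries numbered 2 on top were Bicd2, Exosc3, Nek1 and Trpv4, which did not pass the F test.

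Vcp was highest in the libraries numbered 1. It measured 155 and 147 FPKM in the libraries numbered 1, 83.7 and 107 FPKM in those numbered 2, and 83.5 and 93.6 FPKM in those numbered 3. The libraries numbered 1 lay above the other 4 by 0.71 on the log2 scale (SE 0.12, limma F test adjusted p = 0.00695). Dctn1 measured 48.7 and 50.3 FPKM in the libraries numbered 1, 25.4 and 35.7 FPKM in those numbered 2, and 39.4 and 32.3 FPKM in those numbered 3 (log2 excess 0.58, SE 0.15, adjusted p = 0.0308). Bscl2 measured 35.1 and 31.95 FPKM in the libraries numbered 1 and between 20.03 and 23.9 FPKM in the other 4 (log2 excess 0.54, SE 0.12, adjusted p = 0.0203). Ubqln2 measured 156 and 144 FPKM in the libraries numbered 1, 95.6 and 92.5 FPKM in those numbered 2, and 118 and 116 FPKM in those numbered 3, with the pairs fully apart (log2 excess 0.51, SE 0.11, adjusted p = 0.00994). Both libraries numbered 1 lay above the other 4 in 12 of the 32 genes, against 25.9% of all genes. Besides these 4 they were Atxn2, Fig4, Mfn2, Slc52a2, Sod1, Sqstm1, Tfg and Uba1, which did not pass the F test.

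The 2 mitochondrial genes that passed differed in their order. Gdap1, with the values above, was lowest in both libraries numbered 2, by 0.64 on the log2 scale (SE 0.13, limma F test adjusted p = 0.0135). Chchd10 measured 59.04 and 58.3 FPKM in the libraries numbered 3, 107 and 92.6 FPKM in those numbered 1, and 72.2 and 107 FPKM in those numbered 2. It was lower in replicate 3 by 0.67 on the log2 scale (SE 0.15, adjusted p = 0.0226). In the remaining group of genes Tardbp measured 65.5 and 45.0 FPKM in the libraries numbered 2, 37.7 and 37.0 FPKM in those numbered 1, and 42.4 and 53.4 FPKM in those numbered 3, and did not pass (limma adjusted p = 0.106). Of the other genes that act on RNA, none of Atxn2, Matr3, Exosc3, Exosc8, Trip4 and Ascc1 passed, whereas the ribonuclease gene Ang did, as given above. Both libraries numbered 3 lay above the other 4 in 1 of the 32 genes (Matr3), against 4.18% of all genes, and below them in 3 (Chchd10, Optn and Sqstm1), against 10.8%.

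**Figure D4:**
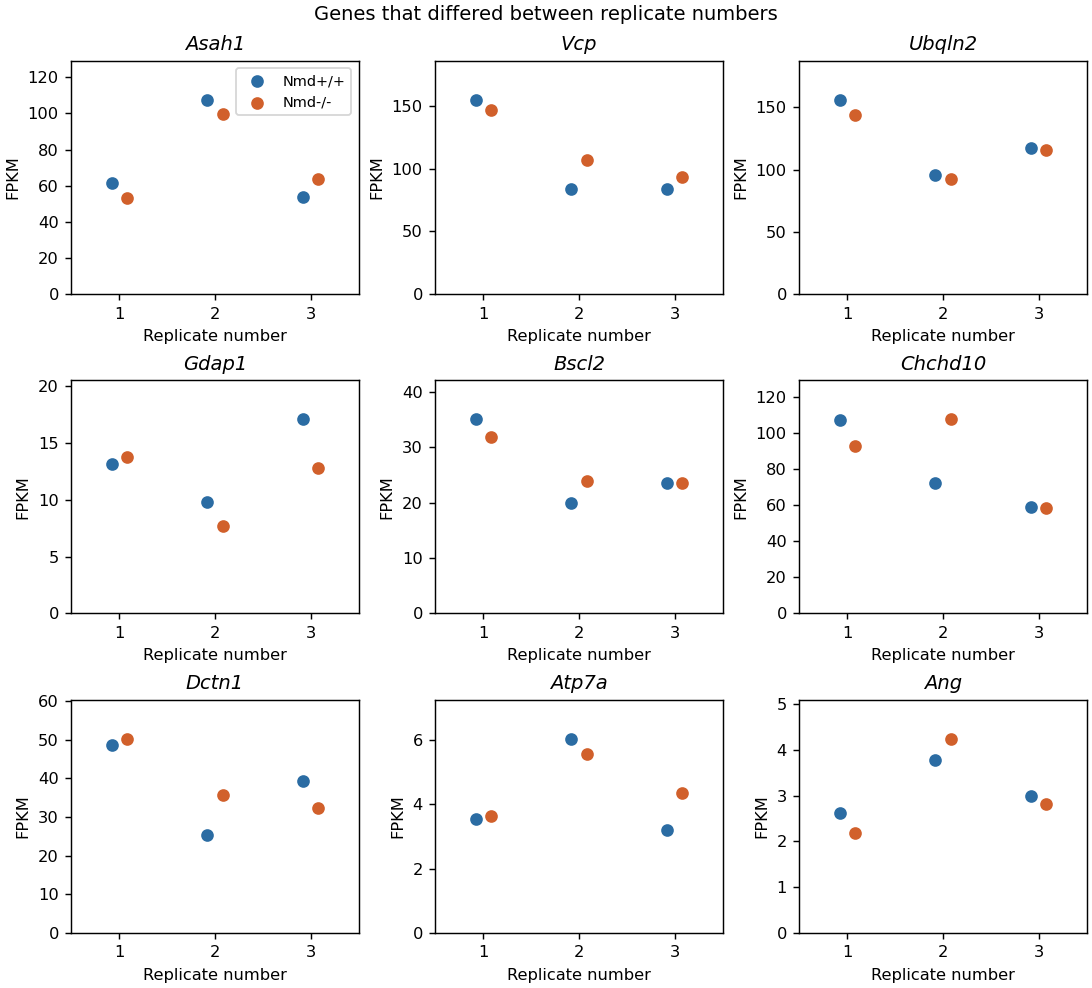
FPKM (axis from 0) by replicate number for the 9 genes that passed the F test of the replicate number, with 1 point per library, blue for Nmd+/+ and orange for Nmd-/-. In Ubqln2 the 2 genotypes lie close together at each number while the numbers differ, and in Chchd10 they part at replicate 2.

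These calls depended on single libraries. With all 6 libraries 9 of the 32 genes passed the F test, beside 4173 of the 14611 genes tested. Without Nmd+/+ replicate 1, 3 passed, beside 2280 of all genes, and without Nmd-/- replicate 1, 4 passed, beside 2664. Without Nmd-/- replicate 2, 14 passed, beside 6470, so the counts of all genes moved in the same directions. With no filter on low values 0 did, nor did any of 27711 genes. In that last fit limma warned of genes with a sample variance of 0, and what this did to the calls was not tested. The calls of Asah1, Gdap1 and Chchd10 held without each single library. Vcp did not pass without Nmd+/+ replicate 1 (limma adjusted p = 0.188), and its adjusted p lay between 9.14e-05 and that value over 13 alternatives. Ubqln2, Bscl2 and Dctn1 did not pass without Nmd+/+ replicate 1 (0.130, 0.453 and 0.125) or without Nmd-/- replicate 1 (0.0626, 0.0694 and 0.0736), nor did Dctn1 after quantile normalization (0.0542). Atp7a did not pass without Nmd+/+ replicate 1 (0.0521), the Nmd+/+ library numbered 2 (0.162) or the Nmd-/- library numbered 1 (0.0665). Ang did not pass without either library numbered 1 (0.102 and 0.253, Nmd+/+ first) or without the Nmd-/- library numbered 2 (0.111). Over their alternatives the lowest and highest adjusted p of these 5 genes were 0.000566 and 0.148 for Ubqln2, 0.00205 and 0.453 for Bscl2, 8.93e-05 and 0.245 for Dctn1, 0.00121 and 0.840 for Atp7a, and 0.00895 and 0.279 for Ang. For Asah1, Gdap1 and Chchd10 the highest were 0.876, 0.501 and 0.233. Without replicate 2 of both genotypes, which leaves replicates 1 and 3, Asah1, Gdap1, Atp7a and Ang did not pass.

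The Cufflinks intervals allow each pair of same-numbered libraries to be compared with the error within a library. In the pair numbered 1 the intervals of Nmd+/+ and Nmd-/- lay apart for 4 of the 32 tested disease genes (Asah1, Chchd10, Uba1 and Ubqln2), against 10.6% of all genes tested. In the pairs numbered 2 and 3 they lay apart for 14 and 15 of the 32 genes, against 39.9% and 40.1% of all genes. Asah1 was among them in every pair, higher in Nmd+/+ in pairs 1 and 2 and higher in Nmd-/- in pair 3. In pairs 2 and 3, but not in pair 1, the intervals lay apart for Vcp and Spg11, higher in Nmd-/- both times, and for Gdap1 and Matr3, lower in Nmd-/- both times. They also did for Dctn1, higher in Nmd-/- in pair 2 and lower in pair 3, and for Tardbp, lower in pair 2 and higher in pair 3. The median absolute log2 difference within a pair was 0.07, 0.15 and 0.13 for the disease genes and 0.08, 0.17 and 0.16 for all genes.

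The disease genes on the X chromosome are Uba1, Ubqln2 and Atp7a, whose values are given above. Xist, whose RNA coats an inactive X, was low in Nmd+/+ replicate 2 (0.155 FPKM) and Nmd-/- replicate 3 (0.143 FPKM), while the remaining 4 libraries had 225 to 273 FPKM. Uba1 was lowest in the libraries numbered 2, of which only the Nmd+/+ one was low in Xist. With the Xist level as a covariate, 0 of the 32 genes passed between genotypes and 19 were higher in Nmd-/- by sign. Since each genotype had a library low in Xist, this covariate could hardly move a genotype difference. That of Optn was 0.2367 without it and 0.2369 with it.

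Some levels may include reads of a neighbouring gene on the same strand, or of one on the other strand if counting ignored strand. The use of strand in counting is not given in the sources used here. In GENCODE M21 (GRCm38) 13 of the 34 genes shared exonic bases with another gene. That release had the same coordinates as the data for 22 of the 34 genes, but not for Ang and Matr3. The largest shares on the other strand were 23.3% of the exonic length of Tardbp with Masp2, 17.3% of Sqstm1 with Mrnip and 13.8% of Spg11 with Eif3j1. On the same strand they were 18.2% of Ang with Rnase4 and 17.3% of Matr3 with Gm28285. These are shares of length, not of reads, and how far the levels of these 5 genes include reads of a neighbour was not tested.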

How the data were processed

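Total RNA of 6 primary mouse motoneuron cultures was sequenced after library preparation with a Lexogen mRNA kit, per the labels' protocols. The authors deposited FPKM per gene with the bounds of a 95% interval and a status, 1 table per library, in the layout of Cufflinks output. Tools listed per the submitters' processing notes are Cufflinks 2.2.1, SAMtools 1.3, cutadapt 1.8, Trim Galore 0.4.0 and FastQC 0.10.1, with the build GRCm38. Neither annotation release nor strand setting is given in the sources used. The tables hold no counts, so depth was read from interval widths, as the square of FPKM over the standard error that the interval implies, which covers error within a library only.

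Genotype was tested with limma 3.58.1 (R 4.3.3) with an intensity trend on log2(FPKM + 1), without rescaling, on 14611 genes with a mean of at least 1 FPKM and an accepted status in each library. The threshold was a Benjamini-Hochberg adjusted p of 0.05, two-sided, over all these genes. The replicate number was tested by an F test in a fit with genotype. The procedure was tested on simulated data. Alternatives changed the pseudocount, filter, scaling, trend, replicate block, Xist covariate and libraries included. After subtraction of each genotype's mean, libraries that share a number correlated over genes (r = 0.82, 0.70 and 0.39), so the numbers were taken as pairs. This pairing comes from the values, not from a label. Xist differed within pair 2 (0.155 against 259 FPKM) and pair 3 (273 against 0.143 FPKM, Nmd+/+ first in each). Per-library values are given for the 10 genes with the smallest genotype p, the 4 highest, the 8 with the smallest replicate p, those below the minimum and X-linked ones. The genes, lists and tests were chosen with earlier results of these data known. Loci start from 0 in the files and are printed from 1. Per-library values of Ang and Tardbp were added after their values were seen.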

Additional observations from a re-analysis of the deposited data

How the results depend on the processing

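No disease gene and no other gene passed between genotypes under any alternative run: a pseudocount of 0.1, no filter, a minimum mean of 5 FPKM, scaling by median-of-ratios or quantiles, no intensity trend, the Xist level as a covariate, the replicate block, or any library left out. No disease gene had an unadjusted p under 0.05 in any of them. Of 155 refits of the 10 log2 differences given with an error, 152 kept the direction and 0 passed (limma adjusted p from 0.956 to 1). The 3 that turned were Vrk1 without Nmd+/+ replicate 3 (-0.0097), Gdap1 without Nmd-/- replicate 2 (0.026) and Plekhg5 without replicate 2 of both genotypes (-0.036). The filter, the intensity trend and the replicate block change the error but not the log2 difference. In those refits the direction was thus fixed in advance. The Xist covariate could hardly move it either, since each genotype had a library low in Xist. With 1 library left out Vrk1 ranged from -0.0097 to 0.25, Gdap1 from -0.40 to 0.026, Optn from 0.11 to 0.32, Trpv4 from 0.065 to 0.36, Matr3 from -0.29 to -0.059, Nek1 from -0.27 to -0.054, Plekhg5 from 0.034 to 0.22, Slc52a2 from 0.057 to 0.30, Spg11 from 0.082 to 0.20 and Tbk1 from -0.16 to -0.047. Leaving out 1 library moved the median of the 32 genes between -0.023 (without Nmd+/+ replicate 3) and 0.094 (without Nmd+/+ replicate 1), and the number higher in Nmd-/- between 13 and 23. Genes with an unadjusted p under 0.05, 65 of 14611, came to 711 with the replicate block, 692 with the replicate block and median-of-ratios scaling, 517 of 27711 with no filter, 29 of 10463 at a minimum mean of 5 FPKM, 275 without replicate 2 of both genotypes, and between 20 and 475 with 1 library left out. The block changed no call of a disease gene. For the replicate number, 9 disease genes and 4173 of all genes passed, between 3 and 14 and between 2280 and 6470 with 1 library left out, and 0 and 0 with no filter, where limma warned of sample variances of 0, as it did for genotype with no filter; the cause was not tested. FPKM tables carry no counts, so depth limits the lowest genes, Slc52a3, Slc5a7 and Trpv4, most.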
